A study of Caenorhabditis elegans with 6 samples.

Results

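The R244H point mutant of sdhb-1 was set against the sdhb-1(gk165) null mutant across all 12798 genes of the deposited table. R244H (L4) was a pool of fourth-stage Caenorhabditis elegans larvae labelled sdhb-1(gk165)/mIn1;R244H. They carried a single-copy transgene on the X chromosome in which the gene's own promoter drove genomic sdhb-1 with the arginine-to-histidine change that R244H names. gk165 (L2) was a pool of second-stage larvae homozygous for gk165, a deletion that takes out all or part of exons 1 to 5 of sdhb-1. The deletion also removes the first exon of cup-15, the gene next to sdhb-1, and part of its second. Both mutants thus carry gk165, and the transgene is in R244H (L4) alone. mIn1 in the R244H label is a chromosome II inversion that is used to balance gk165. In the study's strain list mIn1 also carries mIs14, a GFP transgene, and the dpy-10 allele e128. By that label the worms would hold a copy of chromosome II without gk165, whereas the study describes R244H as point mutants in the deletion background. If the label is taken as written, the mutants differ in zygosity and in mIn1 as well. gk165 homozygotes stop growing at the second larval stage, whereas R244H worms reach adulthood and are sterile, and the mutants were therefore taken at different stages. Genotype and stage cannot be told apart in this pair. WT (L4) and WT (L2), wild-type N2 larvae of the same stages, gave the ratio of the stages without a mutation. WT (L3) and WTR (L4), gk165 worms that carry the wild-type transgene, complete the 6 libraries. All worms were grown at 20 °C on Escherichia coli OP50, polyA RNA of whole worms was sequenced, and each condition had 1 library, so no difference between conditions could be tested against a replicate spread.

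Succinate dehydrogenase (SDH), complex II of the respiratory chain, oxidises succinate to fumarate in the tricarboxylic acid (TCA) cycle and passes the electrons to ubiquinone. Its B subunit, SDHB-1 in the worm, holds the iron-sulphur clusters along which the electrons travel. The changed arginine corresponds to one of human SDHB that is mutated in familial paraganglioma. Between the second and the fourth larval stage a hermaphrodite molts, grows its gonad, makes sperm and starts the oocyte and yolk programmes, so a comparison across these stages also holds the genes of growth and reproduction.

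The level of a gene was the mean of its linear RPKM (reads scaled to exon length and library size) over its listed exons. The mutant ratio is the log2 of RPKM + 1 in R244H (L4) over gk165 (L2), the wild-type ratio is the same of WT (L4) over WT (L2), and D is the mutant ratio minus the wild-type ratio. A gene was called higher or lower where the difference was at least 2-fold, the level reached 5 RPKM in a library compared, and the 95% counting interval of its reads lay on the same side of no change. The intervals cover counting error only. They were made from reads pooled over the gene, whereas the RPKM mean weights a short exon like a long one, so that a ratio can lie outside its interval.

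The labels were checked on sdhb-1 (WBGene00006433, chromosome II, 9350648 to 9352801, minus strand, build WBcel235). It had 68 reads in R244H (L4) and 5 in gk165 (L2), against 165 in WT (L4) and 32 in WT (L2). Exons 1 to 5 carried 54 reads in R244H (L4) and 0 in gk165 (L2), where the floor of 3 reads is 10.9 CPM (reads scaled to library size alone), and the 5 reads of gk165 (L2) all lay in exon 6. The mutant ratio of sdhb-1 was 3.54 (interval 1.97 to 4.93) and D was 2.83. cup-15, the neighbouring gene on chromosome II, is also cut by gk165. It had 0 reads in R244H (L4) and 0 in gk165 (L2), against 14 in WT (L4) and 1 in WT (L2). WTR (L4) had 0 reads of cup-15. R244H (L4) thus had no read of cup-15, like gk165 (L2) and WTR (L4), although a chromosome without gk165, as in the label, would carry that gene, and a count of 0 allows up to 3 reads. WTR (L4), gk165 worms with the wild-type transgene, had 35 reads of sdhb-1 exons 1 to 5 in a library of 542503 reads. R244H (L4) had 54 in a library of 405789 reads. The sdhb-1 reads do not by themselves show whether exons 1 to 5 in R244H (L4) were read from the transgene or from mIn1.

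The libraries were shallow, with 405789 reads on listed exons in R244H (L4) and 279254 in gk165 (L2), against 867446 in WT (L4) and 188742 in WT (L2). They also differed in where reads fell along a gene. Over 418 genes the last quintile of the listed exons, at the 3′ end, took 22.0% of the reads in R244H (L4) and 43.5% in gk165 (L2), against 23.7% in WT (L4) and 32.4% in WT (L2). Ratios followed gene length with this: from the shortest to the longest quintile of genes the median mutant ratio was -0.87, -0.43, 0.05, 0.36 and 0.98, where the wild-type medians lay between 0.38 and 0.79. With reads of the last 500 bp alone the mutant medians lay between -0.87 and -0.04. Short genes therefore stood low and long genes high in R244H (L4) over gk165 (L2) as a class. For this reason each call below was recomputed from the last 500 bp and after centring each ratio on the median of its length quintile, and a call that came out the same way all 3 times is said to hold in both checks. For the shortest quintile of genes (32 to 475 bp) the last 500 bp are the whole gene, so that check repeats the call. The mutant medians from the last 500 bp were all below 0, so for the mutant ratio that check is stricter on higher than on lower calls. Medians of D from the last 500 bp lay between -1.25 and -0.45, so the check leans the same way for D. In the mutant ratio 26.4% of higher and 79.5% of lower calls held in both checks. The part of coverage in any single result was not tested.

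**Figure D1:**
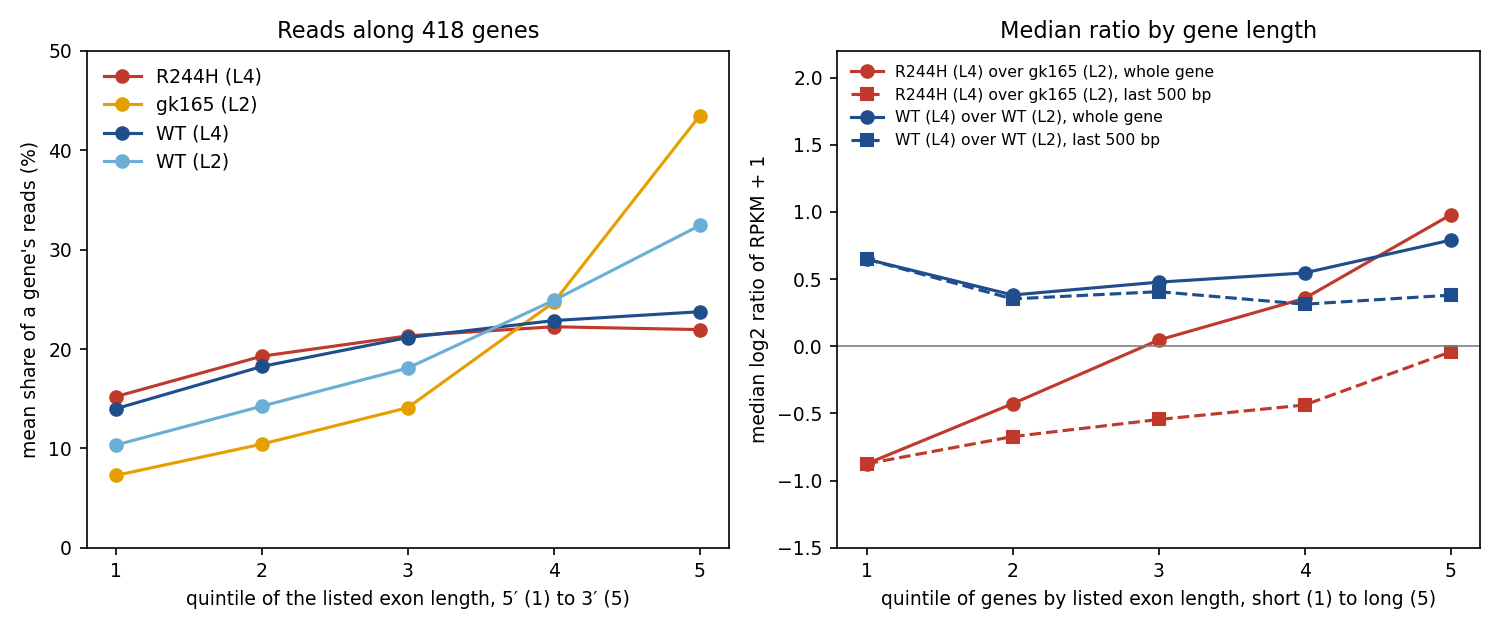
Left, mean percent of a gene's reads in each quintile of its listed exons, from the 5′ to the 3′ end, over 418 genes, 1 line per library. Right, median log2 ratio of genes in each quintile of exon length for the mutant and the wild-type ratio, from whole genes (solid) and from the last 500 bp (dashed). The R244H (L4) line ends at 22.0% and the gk165 (L2) line at 43.5%, and the mutant medians of whole genes run from -0.87 in the shortest genes to 0.98 in the longest.

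Of 11304 genes compared, 1577 (14.0%) were called higher and 1275 (11.3%) lower in R244H (L4) over gk165 (L2). Of these calls 416 higher and 1013 lower held in both checks. In wild type, 2268 of 12155 genes (18.7%) were higher and 734 (6.04%) lower in WT (L4) over WT (L2). D was called higher for 1017 of 12701 genes (8.01%) and lower for 1218 (9.59%), of which 434 and 647 held in both checks. The calls overlapped in part: 602 genes were higher in both ratios, which is 38.2% of the genes higher in the mutants and 31.7% of those higher in wild type, and 140 were lower in both. Opposite calls were given to 70 of 10758 genes (0.651%) that were higher in the mutants and lower in wild type, and to 96 (0.892%) with the reverse. Across these 10758 genes the mutant and wild-type ratios had a Pearson r of 0.20 and a Spearman rho of 0.15, and 57.4% of the genes had the same sign in both. Over the 967 genes with at least 20 reads in each of the 4 libraries, the values were 0.42, 0.44 and 65.5%. These are across genes, which are not replicates. Many mutant ratios thus had the sign of the wild-type ratio, and many did not. The groups below are read against the medians over all genes in the table, 0.00 for the mutant ratio, 0.55 for the wild-type ratio and -0.42 for D. Counts of called members are given out of all members in the table, also those too low to compare. The percentages above are of genes compared, so groups of low genes can look short of calls beside them.

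**Figure D2:**
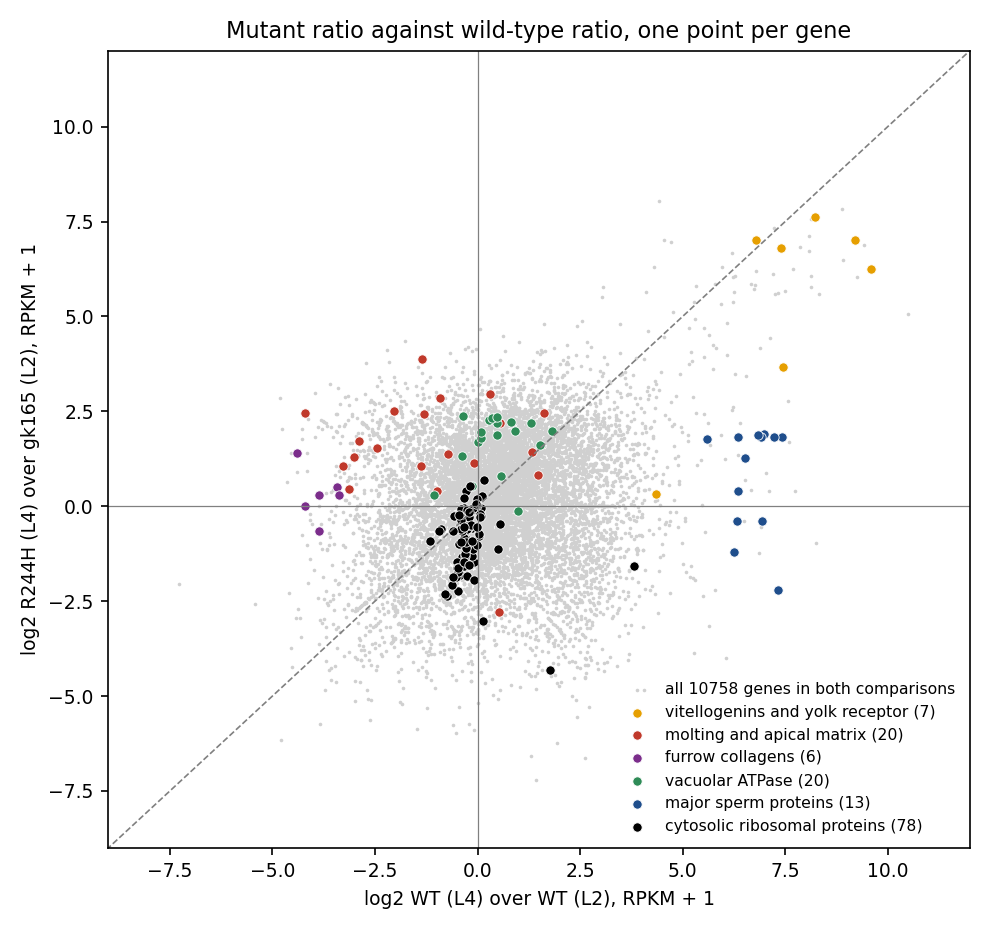
Each point is a gene, with the wild-type log2 ratio (WT (L4) over WT (L2)) on the x axis and the mutant log2 ratio (R244H (L4) over gk165 (L2)) on the y axis. Grey points are all genes in both comparisons. Colours mark vitellogenins and yolk receptor, molting and apical matrix genes, furrow collagens, vacuolar ATPase subunits, major sperm proteins and cytosolic ribosomal proteins. Genes on the dashed diagonal differ as much in the mutants as in wild type.

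Yolk genes and several cuticle collagens were high in R244H (L4) and low in gk165 (L2). The vitellogenins vit-1 to vit-6 are yolk proteins that the intestine of adult hermaphrodites secretes. Together with rme-2, the yolk receptor of oocytes, they summed to 30731 CPM in R244H (L4) and 235 CPM in gk165 (L2), against 26689 CPM in WT (L4) and 17.2 CPM in WT (L2). 6 of 7 members were higher in R244H (L4), all 6 of them vit genes that held in both checks, and all 7 were higher in WT (L4). vit-1 had 596 reads in R244H (L4) and 0 in gk165 (L2), against 947 in WT (L4) and 0 in WT (L2). By the floor this is 140.2-fold higher in the mutant pair and 91.7-fold higher in the wild-type pair. Its counting intervals start at a log2 ratio of 6.83 in the mutant pair and 6.22 in the wild-type pair. vit-4 had 263 reads in R244H (L4) and 0 in gk165 (L2) and was 61.9-fold higher by the floor. By this sum R244H (L4) was at the yolk level of WT (L4). D was lower for 4 members and in none did that hold in both checks. WT (L2) had 0 to 3 reads for each member, so the wild-type ratios depend on the offset. vit-2 and vit-6 had 25 and 27 reads in gk165 (L2), against 1 and 3 in WT (L2), whereas vit-1 and vit-4 had no read in either. rme-2 stood apart from the vit genes, with 7 reads in R244H (L4) and 2 in gk165 (L2), against 127.5 in WT (L4) and 0 in WT (L2).

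The numbered cuticle collagens, small structural proteins of which each molt uses its own set, had 67 of 120 members higher and 7 lower in R244H (L4), and 58 and 7 of these held in both checks. The list median was 1.98 for the mutant ratio and 1.45 for the wild-type ratio, in which 62 were higher and 18 lower. col-143 had 706 RPKM in R244H (L4) and 1.67 RPKM in gk165 (L2), against 56.6 RPKM in WT (L4) and 1.67 RPKM in WT (L2). gk165 (L2) had no read of it, so it was 54.3-fold higher in R244H (L4) by the floor, and it overlaps T15B7.15. col-20 had 2233 RPKM in R244H (L4) and 12.8 RPKM in gk165 (L2), against 1331 RPKM in WT (L4) and 7.91 RPKM in WT (L2), and its mutant and wild-type ratios were alike (7.34 and 7.22). col-80 had 1979.7 RPKM in R244H (L4) and 14.3 RPKM in gk165 (L2), against 811 RPKM in WT (L4) and 33.8 RPKM in WT (L2), with a D of 2.47 (interval 1.30 to 4.02) that held in both checks. col-181, which had 1 read in gk165 (L2) and none in WT (L2), had 939 RPKM in R244H (L4), against 853 RPKM in WT (L4). The adult strut collagens bli-1 and bli-2, whose loss blisters the cuticle, were 43.1-fold and 24.5-fold higher in R244H (L4) by the floor. Their levels in R244H (L4) were 141 and 201 RPKM, against 24.3 and 67.9 RPKM in WT (L4).

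A few collagens ran the other way. col-43 had 1 read in R244H (L4) and 113.5 in gk165 (L2) and no read in the other 4 libraries, and its mutant ratio was -6.92 (interval -12.65 to -4.83). col-158, which overlaps nphp-4, had 6.98 RPKM in R244H (L4) and 292 RPKM in gk165 (L2), against 1.22 RPKM in WT (L4) and 6.98 RPKM in WT (L2). Both had their highest level in gk165 (L2). col-41 was lower in both ratios, with 23.6 RPKM in R244H (L4) and 101 RPKM in gk165 (L2), against 4.99 RPKM in WT (L4) and 926 RPKM in WT (L2), and the wild-type difference was the larger, so that D was 5.22. col-138 was higher in both, with 1848 RPKM in R244H (L4) and 54.3 RPKM in gk165 (L2), against 2277 RPKM in WT (L4) and 0.572 RPKM in WT (L2), and its D was -5.44 (interval -8.98 to -0.84).

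Genes of the larval molt did not differ between the mutants as they did between WT (L4) and WT (L2). Many of them were lower in WT (L4) than in WT (L2), whereas none of the furrow collagens, other body-shape collagens and molting genes listed was called lower in R244H (L4) than in gk165 (L2). The 6 furrow collagens (dpy-2, dpy-3, dpy-7, dpy-8, dpy-9 and dpy-10), which form the rings of the cuticle and set body shape, summed to 586 CPM in R244H (L4) and 490.4 CPM in gk165 (L2), against 32.5 CPM in WT (L4) and 880.1 CPM in WT (L2). None was called in the mutant ratio, 6 of 6 were lower in wild type and 6 had D called higher, 5 of them in both checks. dpy-10 had 43.1 RPKM in R244H (L4) and 15.7 RPKM in gk165 (L2), against 2.90 RPKM in WT (L4) and 81.6 RPKM in WT (L2), and its D was 5.81 (interval 4.32 to 9.45). By the R244H label the mIn1 copy of dpy-10 is the allele e128, whose part in this level was not tested. dpy-7 had 65.0 RPKM in R244H (L4) and 45.6 RPKM in gk165 (L2), against 4.81 RPKM in WT (L4) and 61.6 RPKM in WT (L2). dpy-8 had 165 RPKM in R244H (L4) and 135 RPKM in gk165 (L2), against 11.4 RPKM in WT (L4) and 128 RPKM in WT (L2). In each case WT (L4) was the low library of the 4. WTR (L4) was low as well for dpy-10, dpy-7 and dpy-8, with 3.05, 1.95 and 4.49 RPKM. WT (L3) had 88.7, 87.2 and 188 RPKM of them. Each stage was 1 pool, so time within a stage and genotype cannot be told apart for the molting genes. Of the 13 other body-shape collagens 8 were higher and 0 lower in R244H (L4), and D was higher for 9, all of which held in both checks. sqt-3, a collagen needed for cuticle integrity, had 797 RPKM in R244H (L4) and 186 RPKM in gk165 (L2), against 731 RPKM in WT (L4) and 2166 RPKM in WT (L2), and its mutant ratio of 2.09 and wild-type ratio of -1.57 had opposite signs. lon-3, which limits body length, had 88 reads in R244H (L4) and 5 in gk165 (L2), against 105 in WT (L4) and 40 in WT (L2), with a D of 4.45 (interval 2.56 to 5.26). rol-6 had 135 RPKM in R244H (L4) and 119.8 RPKM in gk165 (L2), against 82.4 RPKM in WT (L4) and 768 RPKM in WT (L2).

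Of the 21 genes of molting and of the matrix that covers the epidermis, 12 were higher and 0 lower in R244H (L4) over gk165 (L2), whereas 2 were higher and 9 lower in wild type. The median mutant ratio was 1.44, the median wild-type ratio -1.32 and the median D 2.66, and D was higher for 12 members, 10 of them in both checks. lin-42, the worm relative of period that paces the molts, had 247 RPKM in R244H (L4) and 15.8 RPKM in gk165 (L2), against 75.3 RPKM in WT (L4) and 196 RPKM in WT (L2). Its mutant ratio was 3.88 (interval 2.53 to 3.92) and its wild-type ratio -1.37 (interval -1.71 to -1.05), and D, 5.25 (interval 3.81 to 5.26), held in both checks. R244H (L4) was the highest of the 4 libraries for lin-42 and gk165 (L2) the lowest. The lipocalin-related genes lpr-3, lpr-4 and lpr-5 lie side by side on the X chromosome. lpr-3, a component of the apical matrix that overlaps C09F12.6, had 59.7 RPKM in R244H (L4) and 9.98 RPKM in gk165 (L2), against 4.92 RPKM in WT (L4) and 108 RPKM in WT (L2). lpr-5 had 39.6 RPKM in R244H (L4) and 20.3 RPKM in gk165 (L2), against 4.46 RPKM in WT (L4) and 95.9 RPKM in WT (L2). Both were lowest in WT (L4) and highest in WT (L2), and their D was 6.67 and 5.08. noah-1, a zona pellucida protein of the embryonic and larval pre-cuticle, had 68.9 RPKM in R244H (L4) and 20.1 RPKM in gk165 (L2), against 7.93 RPKM in WT (L4) and 65.1 RPKM in WT (L2), and its D of 4.62 held in both checks, whereas its mutant ratio was 0.21 from the last 500 bp alone. mlt-10, a gene of the molting cycle, had 79.7 RPKM in R244H (L4) and 10.2 RPKM in gk165 (L2), against 72.2 RPKM in WT (L4) and 136 RPKM in WT (L2), and both its mutant ratio of 2.84 and its D of 3.75 held. bli-3, the dual oxidase that cross-links cuticle, had 31 reads in R244H (L4) and 0 in gk165 (L2), against 47 in WT (L4) and 10 in WT (L2). By the floor bli-3 was 7.29-fold higher in R244H (L4). zmp-2, a matrix metalloprotease, had 51.4 RPKM in R244H (L4) and 13.5 RPKM in gk165 (L2), against 2.65 RPKM in WT (L4) and 27.6 RPKM in WT (L2), and its mutant ratio changed sign to -1.12 in the last 500 bp.

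Hedgehog-related and patched-related genes, many of which are expressed in the epidermis around molts, showed the same order. 17 of 58 were higher and 3 lower in R244H (L4), against 6 higher and 18 lower in WT (L4). D was higher for 16 and lower for 2, and 16 and 1 of these held in both checks. grl-7 had 115 RPKM in R244H (L4) and 33.0 RPKM in gk165 (L2), against 88.2 RPKM in WT (L4) and 304 RPKM in WT (L2), with ratios of 1.77 and -1.78. ptr-11 had 40.6 RPKM in R244H (L4) and 8.18 RPKM in gk165 (L2), against 14.1 RPKM in WT (L4) and 45.0 RPKM in WT (L2), and its mutant ratio and D held in both checks, from 1 read in gk165 (L2). wrt-10 had 33.0 RPKM in R244H (L4) and 20.9 RPKM in gk165 (L2), against 5.45 RPKM in WT (L4) and 162 RPKM in WT (L2), and WT (L4) was the low library. grl-16 was the member with the most reads, with 905 RPKM in R244H (L4) and 102 RPKM in gk165 (L2), against 1650.4 RPKM in WT (L4) and 1224 RPKM in WT (L2), and its mutant ratio of 3.14 (interval 2.61 to 3.55) held in both checks. For grl-16 the gk165 (L2) library was the low one.

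**Figure D3:**
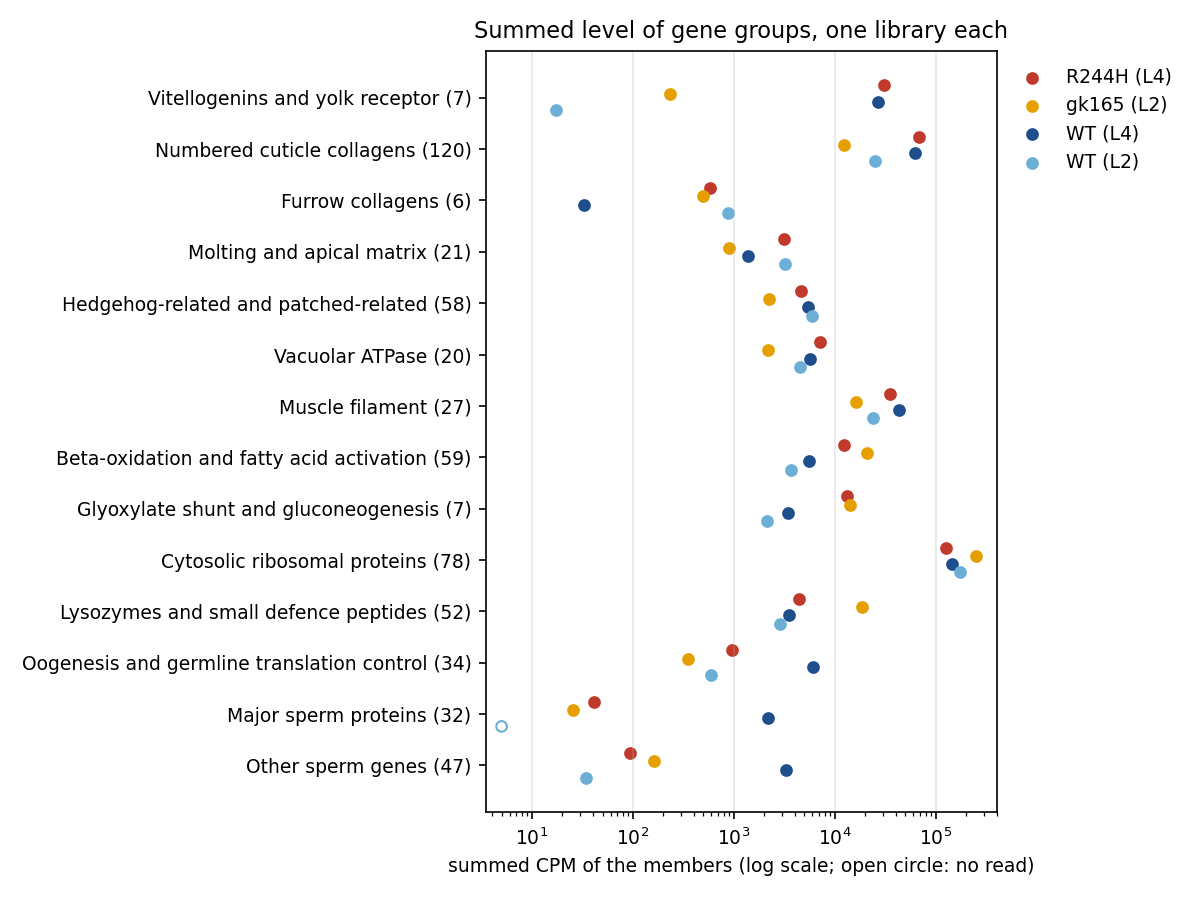
Summed CPM of gene groups in R244H (L4), gk165 (L2), WT (L4) and WT (L2), on a log axis, 1 point per library. Furrow collagens were lowest in WT (L4) at 32.5 CPM, the sperm and oocyte groups were highest in WT (L4), and yolk genes were high in both L4 libraries.

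Germline genes made up the reverse pattern: most were higher in WT (L4) than in WT (L2), and few were called between the mutants. The major sperm proteins, the cytoskeletal proteins of crawling sperm and the signal for oocyte maturation, summed to 40.9 CPM in R244H (L4) and 25.3 CPM in gk165 (L2), against 2155 CPM in WT (L4) and 0 CPM in WT (L2). Among the 32 members, 20 had no read in R244H (L4) and 26 none in gk165 (L2), against 0 in WT (L4) and 32 in WT (L2). None was called in the mutant ratio, where members below 5 RPKM in both mutants were not compared. 25 were higher in WT (L4), and D was lower for 5, all of which had reads in gk165 (L2) and held. Members without a read in either mutant had intervals of D that reached past 0. For msp-50 D was -6.64 (interval -12.97 to 0.90), so the 5 calls do not count how many members differ. Members share near-identical sequences, so reads can be split among them. msp-36 had 0 reads in R244H (L4) and 1 in gk165 (L2), against 127 in WT (L4) and 0 in WT (L2). By the floor msp-36 was 12.3-fold higher in WT (L4). Other sperm genes gave 93.2 CPM in R244H (L4) and 163 CPM in gk165 (L2), against 3316 CPM in WT (L4) and 34.4 CPM in WT (L2), with 0 of 47 higher and 1 lower in the mutant ratio, 35 higher in wild type and D lower for 12, 11 of them in both checks. nspd-1, a sperm-enriched gene of a repeated family, had 2 reads in R244H (L4) and 0 in gk165 (L2), against 133 in WT (L4) and 0 in WT (L2). R244H (L4) was thus close to gk165 (L2) and to WT (L2), and far from WT (L4), in its sperm transcripts.

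Oocyte genes sat between these levels. Genes of oogenesis and germline translation control summed to 961 CPM in R244H (L4) and 347 CPM in gk165 (L2), against 6100 CPM in WT (L4) and 596 CPM in WT (L2). 6 of 34 were higher and 0 lower in R244H (L4), 2 of them in both checks, against 29 higher in WT (L4), and D was lower for 8, 5 of them in both checks. The 6 of 34 are near the share of higher calls over all genes compared, 14.0%. cpg-2, an eggshell chondroitin proteoglycan, had 14 reads in R244H (L4) and 1 in gk165 (L2), against 251 in WT (L4) and 0 in WT (L2), and its mutant ratio was 2.42 with an interval of 0.59 to 8.71. puf-5, an RNA-binding protein of oocytes, had 1 read in R244H (L4) and 1 in gk165 (L2), against 85 in WT (L4) and 0 in WT (L2). Of 16 genes of P granules and germline small RNA, 1 was higher and 1 lower in the mutants, 15 were higher in wild type, and D was lower for 12, 8 of them in both checks. pgl-1, a core P granule protein, had 15.2 RPKM in R244H (L4) and 23.1 RPKM in gk165 (L2), against 136 RPKM in WT (L4) and 9.46 RPKM in WT (L2), with a D of -4.29 (interval -6.22 to -2.82). wago-1, an Argonaute, had 10.3 RPKM in R244H (L4) and 13.4 RPKM in gk165 (L2), against 122 RPKM in WT (L4) and 7.77 RPKM in WT (L2). glh-1, a germline helicase, was called higher in both, with 71.1 RPKM in R244H (L4) and 26.6 RPKM in gk165 (L2), against 275 RPKM in WT (L4) and 18.6 RPKM in WT (L2), and its mutant ratio came to 0.22 in the last 500 bp. Meiotic chromosome genes had 1 of 21 higher and 0 lower in the mutants and 15 higher in wild type, with a median D of -2.31. htp-3, an axis protein of meiotic chromosomes, had 2 reads in R244H (L4) and 0 in gk165 (L2), against 32.5 in WT (L4) and 0 in WT (L2). In whole worms, fewer germ cells and less RNA per germ cell cannot be told apart.

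DNA replication genes, which also serve dividing germ cells, had 3 of 31 higher and 2 lower in R244H (L4), 0 and 2 of them in both checks, and 8 higher in WT (L4). rfc-1, the large subunit of the clamp loader, had 14.5 RPKM in R244H (L4) and 35.4 RPKM in gk165 (L2), against 33.5 RPKM in WT (L4) and 6.33 RPKM in WT (L2), with a D of -3.47. rnr-1, the large subunit of ribonucleotide reductase, had 16 reads in R244H (L4) and 0 in gk165 (L2), against 93.5 in WT (L4) and 7 in WT (L2). By the floor rnr-1 was 3.76-fold higher in R244H (L4).

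The vacuolar ATPase, the proton pump of the intestine's lysosomes, the excretory cell and the epidermis, was higher as a group in R244H (L4). 15 of 20 subunits were higher and 0 lower, against 3 higher and 1 lower in wild type. The median mutant ratio was 1.91, the median wild-type ratio 0.40 and the median D 1.41. 8 of the 15 calls held in both checks, and D was higher for 13 subunits, 9 of them in both checks. vha-2, a subunit of the membrane ring, had 901 RPKM in R244H (L4) and 185 RPKM in gk165 (L2), against 761 RPKM in WT (L4) and 625 RPKM in WT (L2), and its mutant ratio was 2.28 (interval 1.74 to 2.61). vha-15, a subunit of the catalytic head, had 170.1 RPKM in R244H (L4) and 31.7 RPKM in gk165 (L2), against 102 RPKM in WT (L4) and 129.9 RPKM in WT (L2), and vha-4 had 230 RPKM in R244H (L4) and 44.4 RPKM in gk165 (L2), against 159 RPKM in WT (L4) and 114 RPKM in WT (L2). gk165 (L2) was the lowest of the 4 libraries for all 3 genes, and the other 3 libraries lay closer together. The gut cysteine and aspartyl proteases, lysosomal and digestive enzymes, did not show this as a group: 5 of 19 were higher and 1 lower, 1 and 1 of these in both checks, with 9 higher in wild type and a median D of 0.02. asp-6 had 1722 RPKM in R244H (L4) and 610 RPKM in gk165 (L2), against 702 RPKM in WT (L4) and 336 RPKM in WT (L2). cpr-1 was the lower member, with 78.5 reads in R244H (L4) and 181 in gk165 (L2), against 141 in WT (L4) and 41 in WT (L2), and its mutant ratio of -1.96 held in both checks.

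Among the SDH subunit genes, sdha-1, the flavoprotein subunit, had 153 RPKM in R244H (L4) and 47.4 RPKM in gk165 (L2), against 97.4 RPKM in WT (L4) and 85.4 RPKM in WT (L2). Its mutant ratio of 1.67 (interval 0.78 to 1.85) was called higher but came to 0.018 in the last 500 bp. mev-1, the cytochrome b subunit SDHC, had 302 RPKM in R244H (L4) and 497 RPKM in gk165 (L2), against 206 RPKM in WT (L4) and 153 RPKM in WT (L2), with a mutant ratio of -0.71 that was not called and a D of -1.14 (interval -1.98 to -0.55). sdhd-1, the other membrane anchor, had 181 RPKM in R244H (L4) and 194 RPKM in gk165 (L2), against 194 RPKM in WT (L4) and 201 RPKM in WT (L2), and was not called in either pair. sdha-2, a second flavoprotein gene, had 11.6 RPKM in R244H (L4) and 14.8 RPKM in gk165 (L2), against 52.1 RPKM in WT (L4) and 7.87 RPKM in WT (L2), and was called in the wild-type ratio and not in the mutant ratio. sdhb-1 was thus the only one of the 5 subunit genes whose mutant ratio and D held in both checks.

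In the rest of the TCA cycle and pyruvate dehydrogenase, 11 of 22 genes were higher and 1 lower in R244H (L4), against 5 higher and 0 lower in wild type, and 4 and 1 of the mutant calls held in both checks. The median mutant ratio was 1.02, the median D 0.39, and the median D from the last 500 bp -0.08. The succinyl-CoA ligase genes, which make the succinate that SDH consumes, were among the higher calls. sucl-2, an alpha subunit, had 139 RPKM in R244H (L4) and 7.23 RPKM in gk165 (L2), against 144 RPKM in WT (L4) and 45.4 RPKM in WT (L2), with a mutant ratio of 4.09 (interval 2.52 to 6.43) from 3 reads in gk165 (L2). suca-1, the ATP-specific beta subunit, had 129 RPKM in R244H (L4) and 16.6 RPKM in gk165 (L2), against 117 RPKM in WT (L4) and 74.7 RPKM in WT (L2), and a mutant ratio of 2.88 (interval 1.63 to 3.81). Both ratios held in both checks, as did their D. sucl-1, a second alpha subunit, had 222 RPKM in R244H (L4) and 49.3 RPKM in gk165 (L2), against 124 RPKM in WT (L4) and 171 RPKM in WT (L2). Its D of 2.61 held, while its mutant ratio came to 0.61 in the last 500 bp. sucg-1, the GTP-specific beta subunit, went the other way in level, with 11.8 RPKM in R244H (L4) and 25.4 RPKM in gk165 (L2), against 53.3 RPKM in WT (L4) and 50.7 RPKM in WT (L2), and was not called. dlst-1 and dlat-1, the acyltransferases of the oxoglutarate and pyruvate dehydrogenase complexes, had mutant ratios of 1.77 and 1.74 that held in both checks, against wild-type ratios of 1.01 and 0.66. mdh-2, mitochondrial malate dehydrogenase, had 762 RPKM in R244H (L4) and 153 RPKM in gk165 (L2), against 612 RPKM in WT (L4) and 364 RPKM in WT (L2), and its mutant ratio came to 0.62 in the last 500 bp. fum-1, fumarase, had 277 RPKM in R244H (L4) and 102 RPKM in gk165 (L2), against 189 RPKM in WT (L4) and 96.9 RPKM in WT (L2). idh-1, cytosolic isocitrate dehydrogenase, had a mutant ratio of 1.02 over the whole gene and -0.025 in the last 500 bp, and idhb-1, a subunit of the mitochondrial NAD-dependent enzyme, 1.64 and -0.71. idhg-2 was the lower member, with 28.8 RPKM in R244H (L4) and 75.7 RPKM in gk165 (L2), against 34.6 RPKM in WT (L4) and 37.0 RPKM in WT (L2), and its mutant ratio of -1.36 held. The entry enzymes cts-1 and aco-2 were not called, with mutant ratios of 0.56 and 0.45.

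Glyoxylate shunt and gluconeogenesis genes summed to 13346 CPM in R244H (L4) and 14207 CPM in gk165 (L2), against 3414 CPM in WT (L4) and 2107 CPM in WT (L2). 2 of 7 were higher in R244H (L4) over gk165 (L2), and neither call held in both checks. Most of the sum in both mutants was icl-1, the bifunctional shunt enzyme, and the other members did not all follow it. The calls were men-1, malic enzyme, with 86 reads in R244H (L4) and 17 in gk165 (L2), against 254 in WT (L4) and 33 in WT (L2), and pyc-1, pyruvate carboxylase. fbp-1, fructose-1,6-bisphosphatase, had 241 RPKM in R244H (L4) and 129 RPKM in gk165 (L2), against 83.0 RPKM in WT (L4) and 129 RPKM in WT (L2), with a D of 1.52 that came to 0.60 in the last 500 bp. The phosphoenolpyruvate carboxykinase genes pck-1 and pck-2 were not called between the mutants, and pck-3 was too low there to compare. pck-2 had 988 reads in R244H (L4) and 361 in gk165 (L2), against 563.5 in WT (L4) and 89.5 in WT (L2), and pck-3 had 0 reads in R244H (L4) and 0 in gk165 (L2), against 30.5 in WT (L4) and 0 in WT (L2). icl-1 had 3409 reads in R244H (L4) and 3080 in gk165 (L2), against 1324 in WT (L4) and 204 in WT (L2). Its RPKM ratio was 0.21 while its pooled reads gave -0.43 to -0.29, so the sign of this small difference depends on how exons are weighted.

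Of 19 genes of glycolysis and lactate dehydrogenase, 8 were higher and 0 lower in R244H (L4), 1 of them in both checks, against 4 higher and 1 lower in wild type. pyk-1, a pyruvate kinase, was the call that held, with 156 RPKM in R244H (L4) and 22.4 RPKM in gk165 (L2), against 152 RPKM in WT (L4) and 49.0 RPKM in WT (L2), and a mutant ratio of 2.75 (interval 1.53 to 2.98) beside a wild-type ratio of 1.62. ldh-1, lactate dehydrogenase, was not called in the mutant ratio (0.64), was lower in wild type (-1.36), and had a D with an interval of 1.01 to 2.67 that held in both checks. hxk-2, a hexokinase, had 62.5 RPKM in R244H (L4) and 15.4 RPKM in gk165 (L2), against 54.3 RPKM in WT (L4) and 47.5 RPKM in WT (L2), and a mutant ratio of 1.95. aldo-1 (1.08), gpd-2 (1.06), pgk-1 (1.76), enol-1 (1.02), pfk-1.1 (1.19) and ipgm-1 (1.16), which serve the steps between them, were the other calls, and the last 3 changed sign in the last 500 bp, to -0.16, -0.37 and -0.17. pyk-2, the second pyruvate kinase gene, was not called between the mutants, with 88.7 RPKM in R244H (L4) and 121 RPKM in gk165 (L2), against 38.6 RPKM in WT (L4) and 4.37 RPKM in WT (L2), and WT (L2) was the low library. gpd-1 had 16.7 RPKM in R244H (L4) and 10.3 RPKM in gk165 (L2), against 85.6 RPKM in WT (L4) and 1.89 RPKM in WT (L2), and WT (L4) was the high one.

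Genes of beta-oxidation and fatty acid activation summed to 12270.2 CPM in R244H (L4) and 21013 CPM in gk165 (L2), against 5489.7 CPM in WT (L4) and 3688 CPM in WT (L2). 14 of 59 were higher and 4 lower in R244H (L4), 1 and 4 of them in both checks. In gk165 (L2) most of this sum was acs-2, an acyl-CoA synthetase that feeds fatty acids to mitochondria. It had 1455 reads in R244H (L4) and 4042 in gk165 (L2), against 86 in WT (L4) and 9 in WT (L2), and 2074 RPKM in R244H (L4) and 7464 RPKM in gk165 (L2), against 61.6 RPKM in WT (L4) and 18.9 RPKM in WT (L2). Its mutant ratio was -1.85 (interval -2.06 to -1.89) and D was -3.50 (interval -4.35 to -2.41), and both held. kat-1, a thiolase, was the call that held as higher, with 344 RPKM in R244H (L4) and 72.9 RPKM in gk165 (L2), against 218 RPKM in WT (L4) and 78.1 RPKM in WT (L2). In fatty acid synthesis and desaturation 5 of 19 were higher and 1 lower, 3 and 1 of them in both checks. The elongase elo-2 had 132 RPKM in R244H (L4) and 16.2 RPKM in gk165 (L2), against 36.5 RPKM in WT (L4) and 93.9 RPKM in WT (L2), with a mutant ratio of 2.94 and a D of 4.28 (interval 3.15 to 6.67). elo-1, a second elongase, had 336 RPKM in R244H (L4) and 65.2 RPKM in gk165 (L2), against 224 RPKM in WT (L4) and 190.2 RPKM in WT (L2). elo-4 was the lower one, with 20.3 RPKM in R244H (L4) and 85.0 RPKM in gk165 (L2), against 24.5 RPKM in WT (L4) and 11.5 RPKM in WT (L2). Of 8 intracellular lipid-binding proteins 0 were higher and 2 lower in R244H (L4), and D was lower for 4, each of these in both checks. lbp-9 had 225 RPKM in R244H (L4) and 1086 RPKM in gk165 (L2), against 819 RPKM in WT (L4) and 314 RPKM in WT (L2), and its mutant ratio of -2.27 and wild-type ratio of 1.38 had opposite signs. Among 14 genes of the methionine and one-carbon cycle 3 were higher and 2 lower, 2 and 2 of them in both checks. sams-1, the S-adenosylmethionine synthetase, had 202 RPKM in R244H (L4) and 29.7 RPKM in gk165 (L2), against 131 RPKM in WT (L4) and 200.2 RPKM in WT (L2), with a mutant ratio of 2.72 (interval 2.21 to 3.74) and a D of 3.33. metr-1, methionine synthase, had 76.4 RPKM in R244H (L4) and 15.4 RPKM in gk165 (L2), against 108 RPKM in WT (L4) and 72.4 RPKM in WT (L2).

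**Figure D4:**
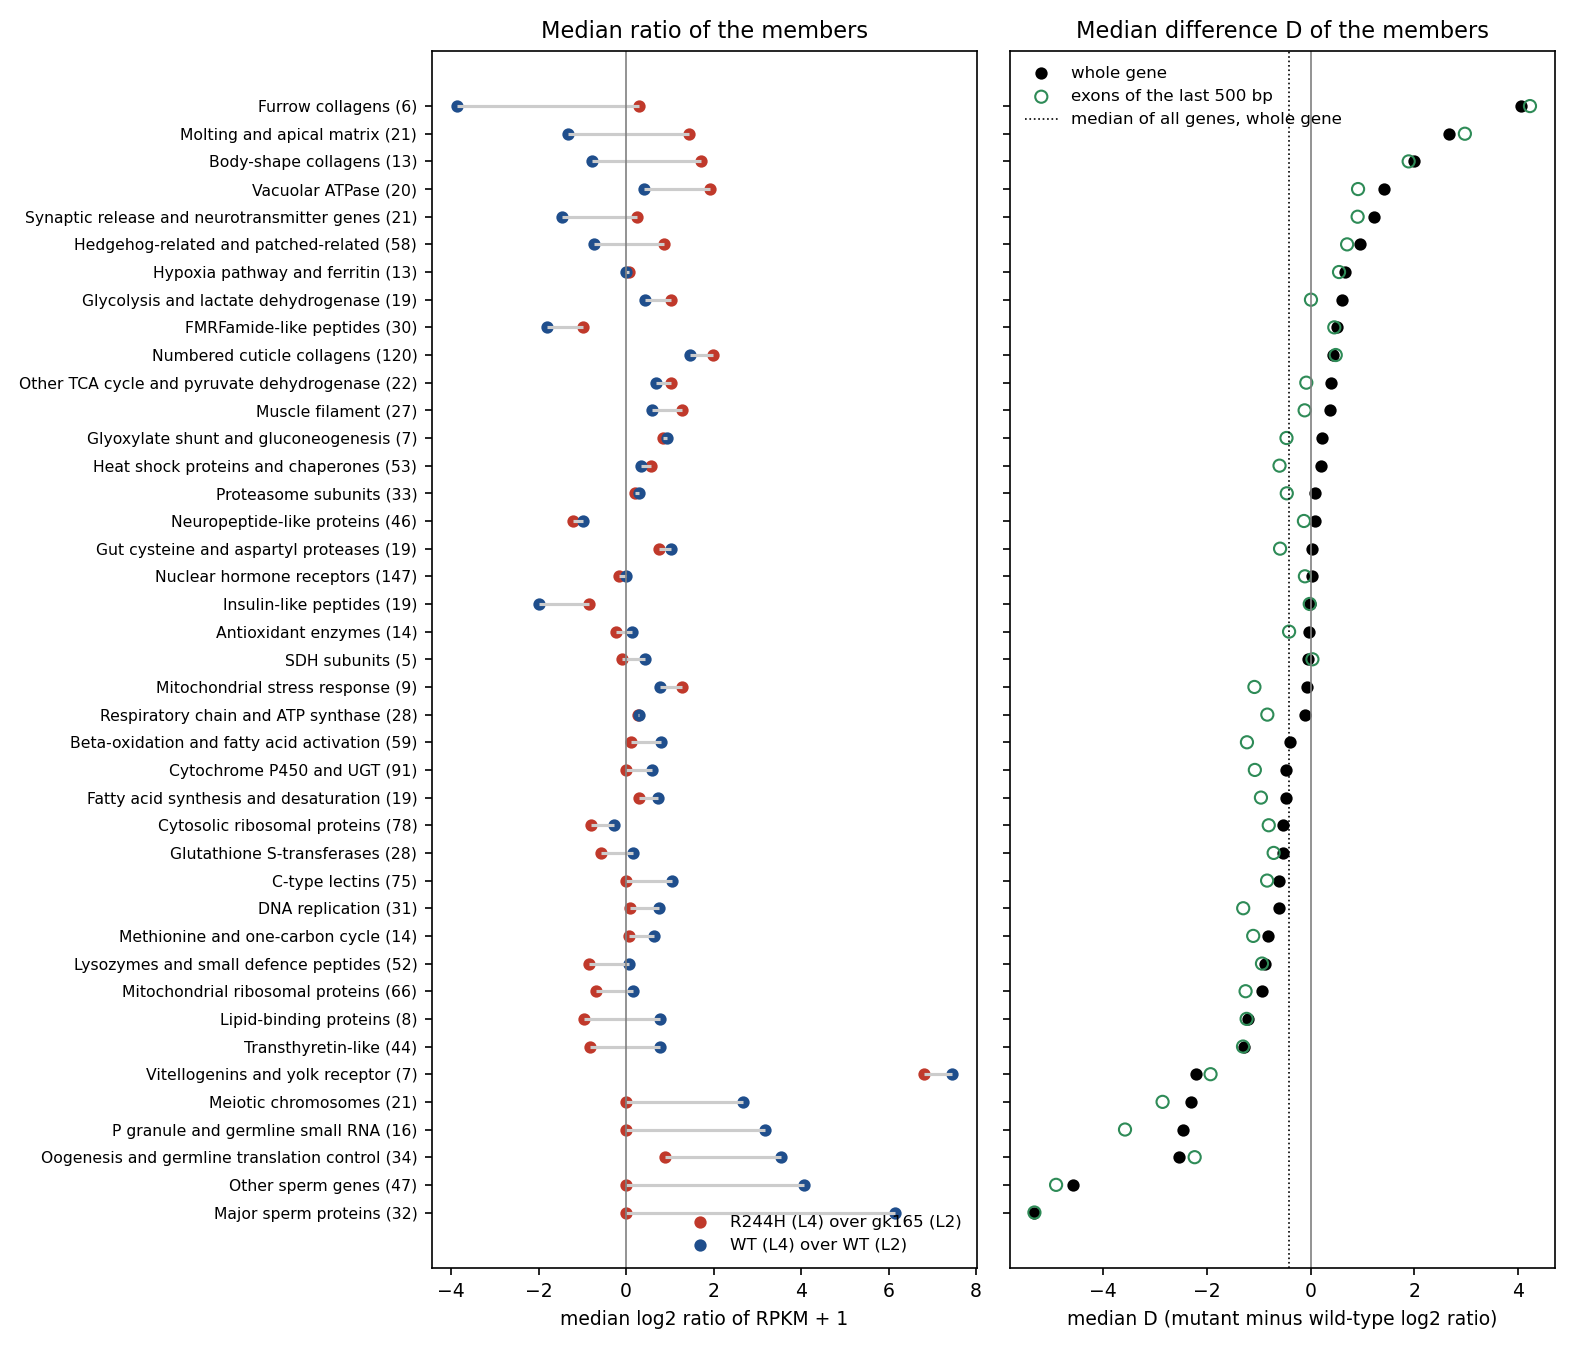
Left, median log2 ratio of each gene list over all its members in the table, for R244H (L4) over gk165 (L2) and for WT (L4) over WT (L2). Right, median D from whole genes and from the last 500 bp, with the median over all genes (-0.42) as a dotted line. Furrow collagens are at the top with 4.04 and major sperm proteins at the bottom with -5.32.

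The respiratory chain and ATP synthase did not move as a group. 4 of 28 nuclear-encoded genes were higher and 4 lower in R244H (L4), 1 and 1 of them in both checks, and the median mutant and wild-type ratios were 0.29 and 0.31. nuo-5, the NDUFS1 subunit of complex I, had 303 RPKM in R244H (L4) and 69.4 RPKM in gk165 (L2), against 287 RPKM in WT (L4) and 126 RPKM in WT (L2), and was the higher call that held. atp-2 and ucr-1, subunits of ATP synthase and complex III, had mutant ratios of 1.04 and 1.22 over the whole gene and -0.75 and -1.04 in the last 500 bp.

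Ribosomal protein genes were lower as groups in R244H (L4). Cytosolic ribosomal proteins summed to 125486 CPM in R244H (L4) and 251878 CPM in gk165 (L2), against 144935 CPM in WT (L4) and 173209 CPM in WT (L2). 0 of 78 were higher and 31 lower, with a median mutant ratio of -0.81 beside -0.28 in wild type. These are short genes, whose length quintiles had negative medians in this pair, and 14 of the 31 calls held in both checks. rpl-29 had 1182 RPKM in R244H (L4) and 9569 RPKM in gk165 (L2), against 2228 RPKM in WT (L4) and 2016 RPKM in WT (L2), and a mutant ratio of -3.02 (interval -3.56 to -3.03) that held. rpl-12 had 1034 RPKM in R244H (L4) and 4822 RPKM in gk165 (L2), against 1572 RPKM in WT (L4) and 2173 RPKM in WT (L2). rpl-11.1 differed from both in the wild-type pair, with 395 RPKM in R244H (L4) and 1182 RPKM in gk165 (L2), against 1987 RPKM in WT (L4) and 141 RPKM in WT (L2), so that its D was -5.38 (interval -6.21 to -4.82). Mitochondrial ribosomal proteins had 1 of 66 higher and 23 lower, 1 and 16 of them in both checks, with a median of -0.69 beside 0.16 in wild type. mrps-33 had 41.0 RPKM in R244H (L4) and 409 RPKM in gk165 (L2), against 62.7 RPKM in WT (L4) and 69.6 RPKM in WT (L2), and mrps-7 had 26.2 RPKM in R244H (L4) and 245 RPKM in gk165 (L2), against 53.6 RPKM in WT (L4) and 33.2 RPKM in WT (L2). For both, gk165 (L2) was the high library. Proteasome subunits had 4 of 33 higher and 4 lower, 1 and 4 of them in both checks. pas-1, an alpha-ring subunit, had 116 RPKM in R244H (L4) and 25.2 RPKM in gk165 (L2), against 117 RPKM in WT (L4) and 93.0 RPKM in WT (L2), and rpt-4, an ATPase of the cap, had 61.4 RPKM in R244H (L4) and 161 RPKM in gk165 (L2), against 141 RPKM in WT (L4) and 135 RPKM in WT (L2).

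Most of the stress groups had few calls, and a difference between them in how many held was not tested. Over all genes compared, 416 of 1577 higher and 1013 of 1275 lower calls held in both checks. Of 9 genes of the mitochondrial stress response 4 were higher and 1 lower in R244H (L4), and 0 and 1 of these held. hsp-6, the mitochondrial Hsp70, had 275 RPKM in R244H (L4) and 112 RPKM in gk165 (L2), against 223 RPKM in WT (L4) and 85.9 RPKM in WT (L2), with like ratios of 1.28 and 1.36. clpp-1, the matrix protease, was the lower call that held, with 23.9 RPKM in R244H (L4) and 88.9 RPKM in gk165 (L2), against 40.5 RPKM in WT (L4) and 47.2 RPKM in WT (L2). In the hypoxia pathway and ferritins 3 of 13 were higher and 2 lower, 2 and 2 of them in both checks. phy-2, a collagen prolyl 4-hydroxylase, had 77.7 RPKM in R244H (L4) and 18.4 RPKM in gk165 (L2), against 41.3 RPKM in WT (L4) and 83.5 RPKM in WT (L2), with a mutant ratio of 2.02 and a D of 3.02 (interval 1.70 to 4.35). cysl-1, a sulfhydrylase-like regulator of the oxygen-sensing hydroxylase EGL-9, had 149 RPKM in R244H (L4) and 31.5 RPKM in gk165 (L2), against 60.0 RPKM in WT (L4) and 51.2 RPKM in WT (L2). hif-1, the hypoxia-inducible factor, had 146 RPKM in R244H (L4) and 39.2 RPKM in gk165 (L2), against 70.8 RPKM in WT (L4) and 102 RPKM in WT (L2), and its mutant ratio of 1.87 came to -0.19 in the last 500 bp. ftn-1, an intestinal ferritin, was called lower, with 52.1 RPKM in R244H (L4) and 314 RPKM in gk165 (L2), against 7.56 RPKM in WT (L4) and 7.01 RPKM in WT (L2), and a mutant ratio of -2.57 (interval -3.26 to -1.65).

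Antioxidant enzymes had 1 of 14 higher and 2 lower in R244H (L4), 0 and 1 of them in both checks, and no call in D. trx-2, mitochondrial thioredoxin, had 94.9 RPKM in R244H (L4) and 331 RPKM in gk165 (L2), against 40.9 RPKM in WT (L4) and 79.6 RPKM in WT (L2). Glutathione S-transferases had 1 of 28 higher and 3 lower, 1 and 2 of them in both checks. gst-7 had 65.8 RPKM in R244H (L4) and 206 RPKM in gk165 (L2), against 87.8 RPKM in WT (L4) and 36.5 RPKM in WT (L2), and gst-4, a common readout of oxidative stress, had 60.8 RPKM in R244H (L4) and 107 RPKM in gk165 (L2), against 44.8 RPKM in WT (L4) and 3.45 RPKM in WT (L2). gst-4 was not called between the mutants, and WT (L2) had no read of it. Cytochrome P450 and UGT genes, which modify lipophilic compounds, had 14 of 91 higher and 8 lower, 5 and 8 of them in both checks. These shares are near those over all genes compared, 14.0% higher and 11.3% lower. cyp-14A5 had 44.5 RPKM in R244H (L4) and 211 RPKM in gk165 (L2), against 15.7 RPKM in WT (L4) and 4.43 RPKM in WT (L2), and ugt-47 had 52.0 RPKM in R244H (L4) and 4.58 RPKM in gk165 (L2), against 50.5 RPKM in WT (L4) and 7.69 RPKM in WT (L2). Heat shock proteins and chaperones had 18 of 53 higher and 3 lower, 4 and 2 of them in both checks. The small heat shock genes hsp-25 and hsp-12.2 were among those that held, with mutant ratios of 1.94 and 1.61 beside wild-type ratios of 0.64 and -1.32. hsp-3, the endoplasmic reticulum BiP, had 559 RPKM in R244H (L4) and 127 RPKM in gk165 (L2), against 603 RPKM in WT (L4) and 387 RPKM in WT (L2), and its mutant ratio came to 0.77 in the last 500 bp.

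Neuropeptide genes gave more lower than higher calls in both pairs. Of 30 FMRFamide-like peptide genes 0 were higher and 12 lower in the mutants, 9 of them in both checks, and 18 were lower in wild type. The median ratios were -0.97 in the mutants and -1.81 in wild type, so D was higher for 7 members and lower for 0. flp-12 had 162 RPKM in R244H (L4) and 637 RPKM in gk165 (L2), against 54.2 RPKM in WT (L4) and 123 RPKM in WT (L2), with ratios of -1.97 and -1.17. flp-22 had 54.3 RPKM in R244H (L4) and 339 RPKM in gk165 (L2), against 17.4 RPKM in WT (L4) and 65.2 RPKM in WT (L2). Insulin-like peptides had 0 of 19 higher and 3 lower in the mutants, all 3 in both checks, and 7 lower in wild type. Synaptic and neurotransmitter genes had 1 of 21 higher and 4 lower, 0 and 3 of them in both checks, against 11 lower in wild type, and D was higher for 8, 5 of them in both checks. egl-3 and egl-21, the convertase and carboxypeptidase that mature neuropeptides, were not called between the mutants (0.51 and -0.16) and lower in WT (L4) (-1.56 and -2.05). ric-4, the SNAP-25 gene, was called lower in both pairs, with 12.2 RPKM in R244H (L4) and 109.9 RPKM in gk165 (L2), against 18.6 RPKM in WT (L4) and 73.0 RPKM in WT (L2).

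The neuropeptide-like protein list held a different set as well. 1 of 46 members were higher and 17 lower in R244H (L4), 1 and 15 of them in both checks, against 1 higher and 12 lower in wild type. Among the lower members with many reads were nlp-27, nlp-28, nlp-29 and nlp-31, neighbouring genes for antimicrobial peptides of the epidermis, and nlp-20. nlp-29 had 512 RPKM in R244H (L4) and 4332 RPKM in gk165 (L2), against 138 RPKM in WT (L4) and 409 RPKM in WT (L2), and a mutant ratio of -3.08 (interval -3.55 to -2.86). nlp-27 had 242 RPKM in R244H (L4) and 2185 RPKM in gk165 (L2), against 152 RPKM in WT (L4) and 176 RPKM in WT (L2), and its D of -2.96 (interval -3.98 to -1.93) held. gk165 (L2) was the high library for all 5 genes. Lysozymes and small defence peptides summed to 4453 CPM in R244H (L4) and 18422 CPM in gk165 (L2), against 3540.4 CPM in WT (L4) and 2883 CPM in WT (L2), and 3 of 52 were higher and 18 lower, 2 and 11 of them in both checks. spp-14, a saposin-like gene, made up most of the gk165 (L2) sum, with 371 reads in R244H (L4) and 3389 in gk165 (L2), against 254 in WT (L4) and 137 in WT (L2), and a mutant ratio of -3.64 (interval -3.85 to -3.54). spp-1, a pore-forming antibacterial protein of the gut, had 175 RPKM in R244H (L4) and 1251 RPKM in gk165 (L2), against 84.7 RPKM in WT (L4) and 57.4 RPKM in WT (L2). lys-7, a lysozyme, had 21.5 RPKM in R244H (L4) and 161 RPKM in gk165 (L2), against 13.2 RPKM in WT (L4) and 21.4 RPKM in WT (L2). In both, R244H (L4) lay nearer to the wild-type libraries than gk165 (L2) did.

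C-type lectins had 15 of 75 higher and 8 lower in R244H (L4), 6 and 6 of them in both checks, against 17 higher and 6 lower in wild type. clec-50 had 263 RPKM in R244H (L4) and 36.4 RPKM in gk165 (L2), against 290.1 RPKM in WT (L4) and 139.7 RPKM in WT (L2), and clec-60 had 4.29 RPKM in R244H (L4) and 71.4 RPKM in gk165 (L2), against 3.06 RPKM in WT (L4) and 5.13 RPKM in WT (L2). Transthyretin-like genes, a nematode family of secreted proteins, had 4 of 44 higher and 19 lower, 2 and 11 of them in both checks, against 9 higher and 4 lower in wild type. ttr-17 was lower in the mutants and higher in wild type, with 87.4 RPKM in R244H (L4) and 481 RPKM in gk165 (L2), against 169.9 RPKM in WT (L4) and 29.9 RPKM in WT (L2). ttr-14 was higher in both, with 126.5 reads in R244H (L4) and 0 in gk165 (L2), against 471 in WT (L4) and 0 in WT (L2). By the floor this is 29.8-fold in the mutant pair and 45.6-fold in the wild-type pair. Nuclear hormone receptors had 6 of 147 higher and 16 lower, 0 and 14 of them in both checks. Their share of lower calls is near the 11.3% over all genes compared. nhr-49, a regulator of fat metabolism, had 43.3 RPKM in R244H (L4) and 13.5 RPKM in gk165 (L2), against 27.7 RPKM in WT (L4) and 28.6 RPKM in WT (L2), and its D of 1.66 held. nhr-99 had 15.9 RPKM in R244H (L4) and 158 RPKM in gk165 (L2), against 14.0 RPKM in WT (L4) and 2.74 RPKM in WT (L2), and was the high one in gk165 (L2).

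In the muscle filament list 17 of 27 were higher and 2 lower in R244H (L4), and 1 and 1 of these held in both checks. unc-52, the basement membrane perlecan and a long gene, had 100.4 RPKM in R244H (L4) and 9.11 RPKM in gk165 (L2), against 85.2 RPKM in WT (L4) and 56.5 RPKM in WT (L2), and its mutant ratio was 3.33 over the whole gene and -1.18 in the last 500 bp. unc-22, the giant kinase twitchin, gave 2.89 and 0.72, and unc-15, paramyosin, 2.86 and 0.93. act-2, an actin gene, had 341 RPKM in R244H (L4) and 479 RPKM in gk165 (L2), against 1012 RPKM in WT (L4) and 282 RPKM in WT (L2), and its D of -2.33 (interval -2.63 to -1.69) held. Among markers of other stages and sexes, hlh-1, a muscle factor of the embryo, had 3 reads in R244H (L4) and 11.5 in gk165 (L2), against 5 in WT (L4) and 4 in WT (L2), and was called lower in R244H (L4). Of the markers listed, the other one of the 2 embryo markers in the table, elt-7, and the male markers mab-3 and ram-5 were not called.

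The X chromosome differed from the autosomes. The median mutant ratio over its 1709 genes was 0.57 and the median wild-type ratio -0.04, whereas the 5 autosomes had median mutant ratios of at most 0.07 and wild-type medians between 0.52 and 0.77. The median D was 0.59 on X and between -0.71 and -0.53 on the autosomes. D was called higher for 245 genes of X and lower for 52, 101 and 29 of them in both checks, and the median D of X was 0.19 in the last 500 bp, where those of the autosomes lay between -1.17 and -0.91. The gap between X and the autosomes thus remained in the last 500 bp. The germline lists above, with a median D from -5.32 to -2.31 for msp, other sperm, oocyte, P granule and meiotic genes, moved with it, and their part in it was not tested.

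The 8 lowest mutant ratios among called genes with at least 30 reads belonged to genes whose level was highest in gk165 (L2). Beside col-43 and col-158, F23A7.8 had 0 reads in R244H (L4) and 31 in gk165 (L2), against 38 in WT (L4) and 4 in WT (L2). By the floor F23A7.8 was 14.6-fold lower in R244H (L4). F21C10.11, which overlaps F21C10.13, had 2 reads in R244H (L4) and 82 in gk165 (L2), against 0 in WT (L4) and 0 in WT (L2). Y73B6BL.44, which overlaps Y73B6BL.285, had 0.5 reads in R244H (L4) and 64.5 in gk165 (L2), against 3 in WT (L4) and 2 in WT (L2). C18A11.1 had 4 reads in R244H (L4) and 112 in gk165 (L2), against 7 in WT (L4) and 0 in WT (L2), with a mutant ratio of -5.10 (interval -7.21 to -3.91) and a D of -7.50. far-7, a fatty acid and retinol binding protein, had 10.8 RPKM in R244H (L4) and 403 RPKM in gk165 (L2), against 3.41 RPKM in WT (L4) and 25.6 RPKM in WT (L2), and F53C11.9 had 9.23 RPKM in R244H (L4) and 359.9 RPKM in gk165 (L2), against 6.88 RPKM in WT (L4) and 61.7 RPKM in WT (L2). All 8 mutant ratios held in both checks. Among the genes with the highest D, F46F2.3 had 190.5 RPKM in R244H (L4) and 102 RPKM in gk165 (L2), against 16.0 RPKM in WT (L4) and 356 RPKM in WT (L2), and wrt-2, a hedgehog-related gene that overlaps pccb-1, had 24.9 RPKM in R244H (L4) and 6.34 RPKM in gk165 (L2), against 5.22 RPKM in WT (L4) and 95.9 RPKM in WT (L2). WT (L4) was the low library in both, as it was for lpr-3, lpr-5, wrt-10, zmp-2 and col-41. Apart from F23A7.8, the genes with the lowest D had their reads almost only in WT (L4) among these 4 libraries. spch-1, a sperm chromatin gene, had 1 read in R244H (L4) and 2 in gk165 (L2), against 478 in WT (L4) and 0 in WT (L2). ssp-35 had 0 reads in R244H (L4) and 4 in gk165 (L2), against 32 in WT (L4) and 0 in WT (L2), and F08B4.8 had 0 reads in R244H (L4) and 4 in gk165 (L2), against 51 in WT (L4) and 0 in WT (L2). ZK546.3, nspd-2 and ssp-34 had 36, 80 and 43 reads in WT (L4), and at most 2 in each of R244H (L4), gk165 (L2) and WT (L2).

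**Figure D5:**
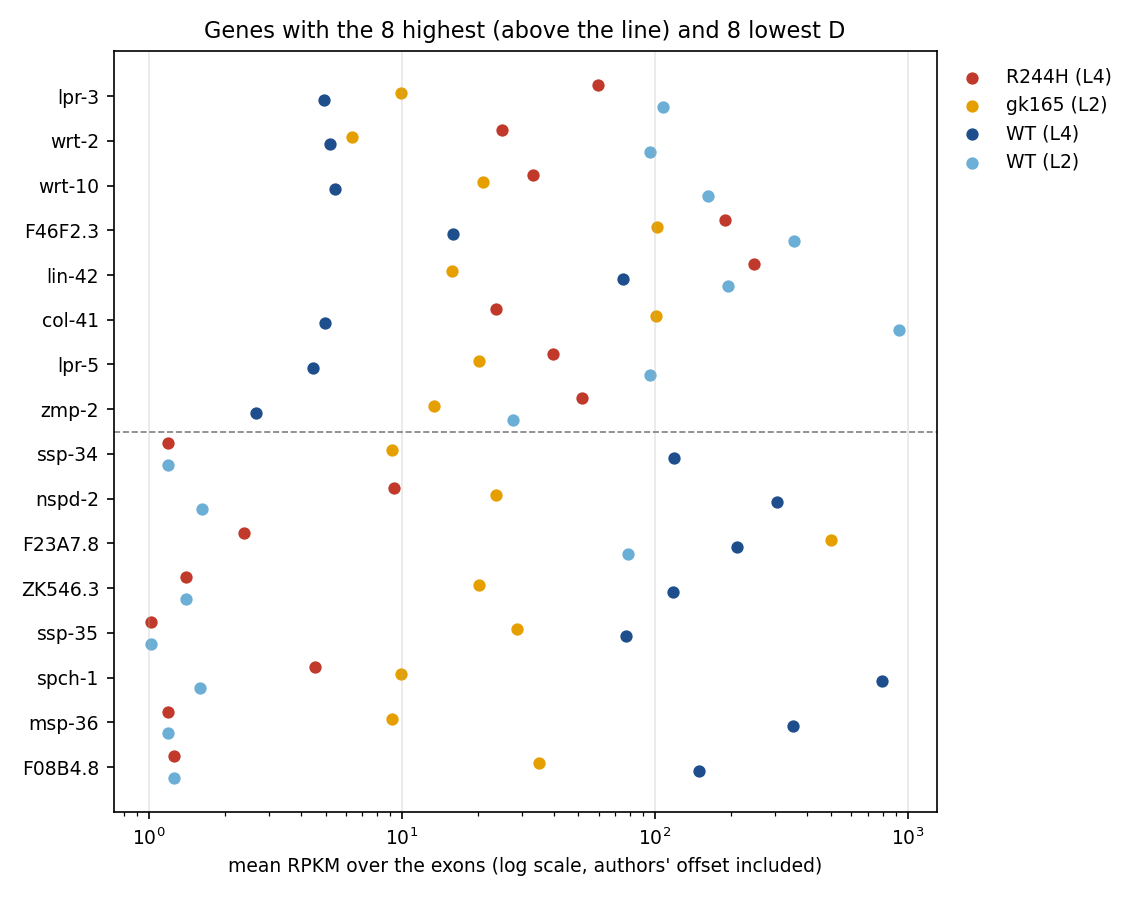
RPKM on a log axis of the 8 genes with the highest D and the 8 with the lowest D in R244H (L4), gk165 (L2), WT (L4) and WT (L2), 1 point per library. In 7 of the 8 genes with the highest D the WT (L4) point is the lowest, lin-42 is lowest in gk165 (L2), and 7 of the 8 genes with the lowest D are highest in WT (L4).

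Some genes with large wild-type ratios had mutant ratios near 0. cyn-2, a cyclophilin gene that overlaps cul-2, had 3 reads in R244H (L4) and 3 in gk165 (L2), against 92 in WT (L4) and 0 in WT (L2). By the floor cyn-2 was 8.91-fold higher in WT (L4). cpg-1, the second eggshell proteoglycan, had 19.9 RPKM in R244H (L4) and 17.7 RPKM in gk165 (L2), against 159 RPKM in WT (L4) and 4.76 RPKM in WT (L2), with ratios of 0.16 (interval -1.19 to 1.86) and 4.80 (interval 3.68 to 11.48). ant-1.3, a mitochondrial ADP/ATP carrier, had 3 reads in R244H (L4) and 2 in gk165 (L2), against 99 in WT (L4) and 0 in WT (L2), and got-2.1, an aspartate aminotransferase, had 3 reads in R244H (L4) and 2 in gk165 (L2), against 55 in WT (L4) and 0 in WT (L2). Y18D10A.11 had 3 reads in R244H (L4) and 4 in gk165 (L2), against 78 in WT (L4) and 0 in WT (L2), and F23D12.11, which overlaps fipr-3, had 8 reads in R244H (L4) and 8 in gk165 (L2), against 39 in WT (L4) and 0 in WT (L2). The mutant ratios of these 6 genes lay within 0.25 of no change, while their counting intervals were several log2 units wide at these depths.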

How the data were processed

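The authors made 1 directional polyA library per pool of whole worms, trimmed reads with Trim Galore 0.4.1 and cutadapt 1.14, aligned them to WBcel235 with TopHat2 2.1.0 and Bowtie2, counted merged exons of Ensembl 94, and deposited log2 RPKM from edgeR 3.26.8 for 53267 exons. The deposited log2 values hold an offset equal to 0.54 CPM, so a gene without reads is not at 0 RPKM. Whether counting used strand is not stated, and 3214 genes overlap another. Reads were recovered from the steps of the values. All 236867 non-zero values came out on hundredths of a read and 54.0% were whole within 0.01, reads shared between exons being fractions. R244H (L4) had 405789 reads, so that 1 read was 2.55 CPM, and gk165 (L2) had 279254, so that 1 read was 3.62 CPM.

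Linear RPKM were averaged over exons per gene, and ratios were taken on log2(RPKM + 1), which understates low genes. Ratios had Clopper-Pearson counting intervals of pooled reads and D a Wald interval with 0.5 reads added. No test across conditions was possible with 1 library each. The calls were tested on simulated Poisson counts with the same exon profile in every library. That simulation held no coverage difference between libraries and no spread between pools, so it cannot show how these affect the calls. The comparison and the 43 gene lists were chosen with earlier results of these data known. Genes were named by rule: sdhb-1, cup-15 and SDH subunits, the 8 largest rises and falls and the 8 highest and lowest D with at least 30 reads, the 6 strongest opposite calls each way, up to 4 members per list and measure with at least 20 reads, any further member of metabolic lists, and the 6 genes nearest to no mutant change among the largest wild-type ratios. hsp-6, clpp-1, hlh-1, elt-7, mab-3 and ram-5 fall outside it and were chosen after their values were seen. Some results are not reported here. Fold changes against a library without reads use a floor of 3 reads. Python 3.11.15, numpy 2.4.6, pandas 2.3.3 and scipy 1.17.1 were used.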

Additional observations from a re-analysis of the deposited data

Results flagged for a closer look

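The genes called in opposite directions with the largest smaller ratio are given here because the mutant and the wild-type pair moved in opposite ways. With 1 library each, the difference between the pairs was not tested. Higher in R244H (L4) and lower in WT (L4) were Y39A1A.9 (mutant ratio 2.88, wild-type ratio -3.24), F56D2.3 (2.66 and -3.13), K02E7.6 (2.76 and -2.63), the matrix genes lpr-3 (2.47 and -4.21) and lpr-4 (2.37 and -3.07), and D1054.9 (2.22 and -2.39), which overlaps D1054.20. Y39A1A.9 had 29 reads in R244H (L4) and 3 in gk165 (L2), against 0.5 in WT (L4) and 12 in WT (L2), and lpr-4 had 29 reads in R244H (L4) and 4 in gk165 (L2), against 6 in WT (L4) and 29 in WT (L2). D held in both checks for all 6, and the mutant ratio held for lpr-4 alone. 

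Lower in R244H (L4) and higher in WT (L4) were rpc-11, an RNA polymerase III subunit gene (-4.83 and 4.05), ave-1 (-3.90 and 3.69), Y57G11B.2 (-3.98 and 3.22), C23H3.5 (-3.12 and 3.61), K07A1.1 (-2.82 and 3.41) and gln-6, a glutamine synthetase that overlaps C28D4.10 (-2.81 and 4.39). None of these 6 had a read in WT (L2), so their wild-type ratios rest on the offset. Y57G11B.2 had 1 read in R244H (L4) and 36 in gk165 (L2), against 16.5 in WT (L4) and 0 in WT (L2), and rpc-11 had 0 reads in R244H (L4) and 12 in gk165 (L2), against 19 in WT (L4) and 0 in WT (L2). The mutant ratio and D held in both checks for all 6.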

How the results depend on the processing

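No paired analysis was possible because each condition has 1 library and the labels give no replicate numbers. For the same reason no replicate could be left out. Pseudocounts of 0.1 and 5 RPKM, no minimum, a minimum of 20 RPKM, centring on the median, pooled reads and the mean of deposited log2 values kept every count of calls within 1.5 times. Centring on the median moved the split in wild type to 1667 higher and 883 lower (65.4% higher, against 75.5%). A 3-fold threshold left 28 and 45 opposite calls. Without the counting interval the calls were 3536 higher and 2818 lower in the mutants, 4868 and 1901 in wild type, 2905 and 5040 in D, and 420 and 833 opposite. From the exon with the highest mean, 549 genes were higher in the mutants and 682 in wild type, D was higher for 439 and lower for 647, and opposite calls were 21 and 38. With it idh-1 (-0.025), enol-1 (-0.16), pfk-1.1 (-0.37), atp-2 (-0.75) and atp-4 (0.038) changed the sign of the mutant ratio, and with the mean of log2 values alh-3 did (0.58). 

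Counts from the last 500 bp and centring by length quintile were added after seeing the data. From the last 500 bp 480 genes were higher (20.6% of mutant calls, against 55.3%) and 1855 lower in the mutants, 979 higher in wild type, 503 higher in D and 24 opposite. The mutant ratio changed sign for zmp-2 (-1.12), idhb-1 (-0.71), idh-1 (-0.025), enol-1 (-0.16), ipgm-1 (-0.17), pfk-1.1 (-0.37), atp-2 (-0.75) and ucr-1 (-1.04). It also did for unc-52 and hif-1, with the values given above. D changed sign for ogdh-1 (-0.34) and ucr-1 (-0.57). Length centring gave 1000 higher (44.5% of mutant calls) and reversed no named gene. With WTR (L4) in place of WT (L4), 107 genes were higher in the mutants and lower in the control pair. With WT (L3) in place of WT (L2), 116 were, and D was higher for 1569. Depth limits low genes: 2070 had no read in R244H (L4) and 2736 none in gk165 (L2).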
